A study of Mus musculus with 2 samples.

Results

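The droplets described here carried transcripts of liver endothelium and of liver macrophages under the same cell barcode. They were found in a single-cell RNA-Seq experiment on mouse liver with 2 libraries, 1 from WT mice and 1 from HKO mice, in which miR-33 is missing from hepatocytes. Members were chosen by measured values. A barcode was a member if it held at least 500 UMIs (unique molecular identifiers, each standing for 1 captured RNA molecule) and at most 50% of its UMIs came from mitochondrial genes. It also had to show at least 4 of 10 endothelial genes (Stab2, Ptprb, Kdr, Eng, Ldb2, Tek, Mecom, Clec4g, Egfl7 and Cyyr1) and at least 3 of 6 macrophage genes (C1qa, C1qb, C1qc, Clec4f, Cd5l and Adgre1). Fewer than 3 of 7 stellate cell genes (Reln, Dcn, Lrat, Pdgfrb, Col1a1, Col1a2 and Col3a1) were allowed. There were 78 members, 19 in WT and 59 in HKO, among 50078 barcodes of which 47880 passed the filters on UMIs and mitochondrial share. They were compared with 383 barcodes that passed the endothelial set only (145 in WT, 238 in HKO) and 372 that passed the macrophage set only (163 in WT, 209 in HKO). Barcodes with 3 or more stellate genes were in none of these groups. The other barcodes, 29245 in WT and 17634 in HKO, passed neither set and gave the reference level. They include deep barcodes (917 in WT and 218 in HKO with at least 20000 UMIs), so this level is not that of free RNA alone.

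WT mice were littermates with intact miR-33, and the HKO library is labelled by the albumin-Cre transgene, whose promoter is active in hepatocytes. Both groups had been fed a CD-HFD, a choline-deficient high-fat diet, for 6 months from 8 weeks of age. Each library was made from 1 cell suspension pooled from 3 livers, into which hepatocytes and live-sorted non-parenchymal cells went in a 1 to 1 mix. A genotype is therefore a single library here, the spread among animals is unknown, and no test of a genotype difference was made. Ranges given in brackets after a level, share or ratio are 95% intervals, which hold counting error and nothing else.

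Liver sinusoidal endothelial cells line the sinusoids and clear waste molecules from blood through scavenger receptors. Kupffer cells, the resident macrophages of the liver, sit inside the sinusoids attached to these endothelial cells and reach through them towards stellate cells and hepatocytes. The endothelium supplies signals such as Notch ligands and bone morphogenetic proteins that maintain Kupffer cell identity. A droplet can hold RNA of more than 1 cell if cells enter it together, and any droplet also takes up free RNA from the suspension. Counts per droplet do not separate these routes from each other or from a single cell that transcribes both sets of genes, and these were not tested.

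The genes used to choose the members are described before all others. Stab2 (chromosome 10, 86841198 to 87008025, GRCm38) encodes a hyaluronan scavenger receptor of sinusoidal endothelium. Its median was 4 UMIs per member in both libraries, its highest value was 29 in WT and 23 in HKO, and 17 of the 19 WT and 53 of the 59 HKO members held it. Ptprb (chromosome 10, 116275523 to 116389535), the vascular endothelial phosphatase, had medians of 3 and 5 UMIs and was found in 18 WT and 58 HKO members. Endothelial transcripts in a member were therefore counted in single digits for most genes, and Mecom, an endothelial transcription factor gene, was found in only 2 WT and 16 HKO members. Macrophage transcripts were more abundant. C1qa (chromosome 4, 136895917 to 136898803), a chain of complement component C1q whose genes C1qb and C1qc lie beside it, had medians of 13 UMIs in WT and 15 in HKO, and highest values of 114 and 87. Clec4f (chromosome 6, 83644542 to 83656187), the Kupffer cell lectin, was found in 14 WT members with a median of 1 UMI and in 49 HKO members with a median of 7. Cd5l, a secreted macrophage protein, was the most abundant of the set, with medians of 20 and 26 UMIs.

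The sum over the 10 endothelial genes ran from 4 to 128 UMIs per WT member (median 16) and from 5 to 136 per HKO member (median 24). The sum over the 6 macrophage genes ran from 3 to 643 UMIs (median 49) in WT and from 3 to 401 (median 74) in HKO. The members with the most even and deepest support show what such a droplet held. In WT this barcode had 22660 UMIs from 6208 genes, with 29 UMIs of Stab2, 42 of Ptprb, 18 of Kdr and 9 of Clec4g beside 48 of Cd5l, 32 of C1qa, 22 of C1qb and 22 of C1qc. Its Clec4f count was 0. In HKO it had 16336 UMIs from 5007 genes, with 23 UMIs of Stab2, 35 of Ptprb, 25 of Kdr and 15 of Clec4g beside 114 of Cd5l, 35 of C1qa, 28 of Clec4f and 27 of C1qc. All 10 endothelial and all 6 macrophage genes were present in this barcode.

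Members at the edge of the rule were then described. The 4 WT members with exactly 3 macrophage genes had a median of 3 UMIs of that set in barcodes of 66236.5 UMIs (median), whereas the 4 such HKO members had a median of 5.5 UMIs in barcodes of 4318 UMIs. Just outside the rule, 6 WT and 7 HKO barcodes had 3 endothelial genes and the full macrophage requirement, with medians of 3.5 and 4 endothelial UMIs. A further 14 WT and 49 HKO barcodes met both sets and were left out because they also had at least 3 stellate genes, with a median depth of 16414 UMIs in WT and 14822 in HKO.

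Hepatocyte RNA set 5 WT members apart. Over a list of 15 hepatocyte genes (Alb, Apoa1 and others), barcodes with neither marker set held a median of 11.9% of their UMIs in WT and 10.5% in HKO. Members held a median of 3.44% in WT and 1.08% in HKO, but the range reached 16.1% and 10.4%. The 3 deepest WT members held 97536, 116334 and 129735 UMIs, with 14.1%, 14.5% and 16.1% of them from hepatocyte genes and only 8, 3 and 3 UMIs from the macrophage set. Together they carried 343605 of the 595313 UMIs of all WT members. Levels per UMI pooled over WT members therefore have a denominator that comes mainly from 3 barcodes. After these values had been seen, each result was also computed over barcodes whose hepatocyte share lay under the median of the barcodes with neither set divided by 2, which was 5.93% in WT and 5.24% in HKO. This kept 14 WT and 51 HKO members, 62 and 165 barcodes of the endothelial set and 31 and 144 of the macrophage set, and these are called low in hepatocyte RNA below.

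To check the label on genes that the rule did not use, UMIs were summed over 41 other endothelial genes and 39 other macrophage genes and divided by the UMIs of the barcode, as counts per 1000000 (CPM). Barcodes with neither set held 844 CPM of the endothelial and 703 CPM of the macrophage genes in WT, and 775 and 770 CPM in HKO. Both sums were at least 2-fold above this level in 14 of 19 WT and 58 of 59 HKO members. The 5 WT members and the 1 HKO member that fell short were all rich in hepatocyte RNA, and all 14 WT and 51 HKO members low in hepatocyte RNA passed. In HKO the members lay at a median of 7.68-fold (range 1.08 to 25.7) for the endothelial genes and 25.4-fold (range 1.08 to 49.7) for the macrophage genes. The endothelial set had 18.4-fold and 1.58-fold in the same units, and the macrophage set had 2.35-fold and 20.4-fold. In WT the members lay at 5.58-fold (range 0.703 to 21.7) and 15.4-fold (range 0.771 to 50.1). The single sets often passed the 2-fold level on both sums as well. In the endothelial set 35 of 145 WT and 89 of 238 HKO barcodes did, and in the macrophage set 18 of 163 and 115 of 209. Several genes of the endothelial list were abundant in the macrophage set, as described below.

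**Figure D1:**
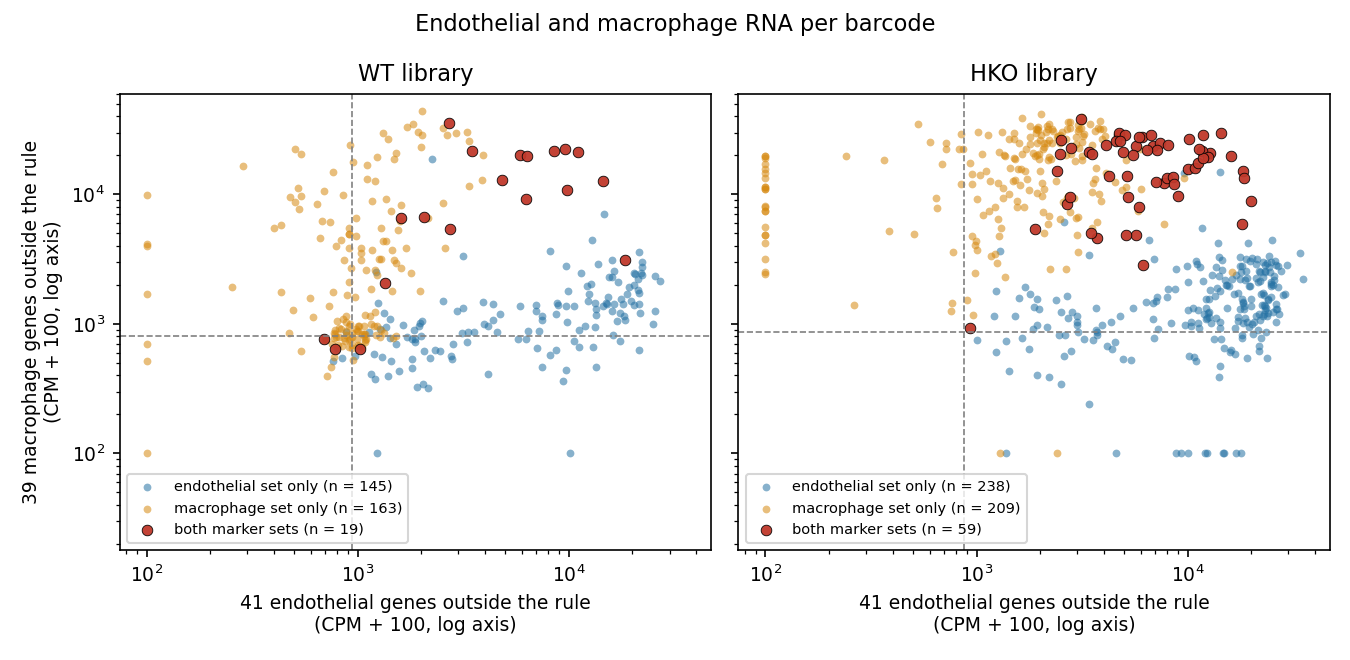
Summed level of 41 endothelial genes (x axis) and 39 macrophage genes (y axis) that the rule did not use, for each barcode, in CPM plus 100 on log axes, in the WT (left) and HKO (right) library. Dashed lines mark the level in barcodes with neither marker set, and the 3 deepest WT members lie close to both lines.

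Levels of gene lists and their ratios, and the CPM of named genes in them, are given below for barcodes low in hepatocyte RNA, while numbers of members that held a gene cover all members. Over all barcodes the WT ratios to the macrophage set turned, to 2.38 for Kupffer cell, 2.47 for pan-macrophage, 3.61 for MHC class II and 3.01 for complement and phagocytosis genes. The HKO ratios were 0.982, 0.755, 0.804 and 0.879 over all barcodes.

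Sinusoidal genes were lower in members than in the endothelial set. Over 16 sinusoidal genes, WT members low in hepatocyte RNA held 4752 CPM (4477 to 5040), endothelial set barcodes 9469 CPM and macrophage set barcodes 1136 CPM. HKO members held 4162 CPM (3985 to 4344) against 10084 and 1118 CPM. The ratio of members to the endothelial set was 0.502 (0.470 to 0.536) in WT and 0.413 (0.393 to 0.433) in HKO. Lyve1, a hyaluronan receptor, stood at 240 CPM in WT members and 140 CPM in HKO members, against 353 and 417 CPM in the endothelial set and 0 and 3.78 CPM in the macrophage set. Bmp2, a ligand for iron sensing by hepatocytes, had 432 CPM in WT members against 856 CPM in the endothelial set and 4.57 CPM in the macrophage set. F8, the coagulation factor VIII gene, had 184 CPM against 846 and 2.29 CPM in the same barcodes. In HKO, 16 of 16 sinusoidal genes tested (at least 10 UMIs in members) lay between the levels of the single sets, and in WT 15 of 16 did. Over all genes tested, 3919 of 7176 lay between in HKO and 2311 of 4535 in WT.

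Genes shared by all endothelium gave the same order. Over 25 pan-endothelial genes, members low in hepatocyte RNA held 2911 CPM in WT and 2829 CPM in HKO, the endothelial set 5496 and 6171 CPM, and the macrophage set 702 and 1020 CPM. Pecam1, an adhesion molecule at endothelial junctions, had 210 CPM in WT members, 352 CPM in the endothelial set and 29.7 CPM in the macrophage set. A few genes of these lists were abundant in both single sets. Ptprm, a receptor phosphatase, had 473 CPM in HKO members, 449 CPM in the endothelial set and 559 CPM in the macrophage set. Clec1b, a lectin receptor also known from platelets, had 290, 215 and 356 CPM in the same order, and Cdh5, the gene of VE-cadherin, had 378, 428 and 213 CPM. These genes account for part of the endothelial sum in the macrophage set.

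Genes of larger vessels were also found. Over 15 such genes, members low in hepatocyte RNA held 1105 CPM in WT and 1039 CPM in HKO, or 0.444 (0.387 to 0.507) and 0.457 (0.414 to 0.505) of the endothelial set. Over all barcodes the ratios were 0.578 and 0.651. Rspo3, a Wnt enhancer of the central vein, was concentrated in few barcodes, with 36 UMIs in 3 of the 19 WT members and 52 UMIs in 9 of the 59 HKO members. Vwf, von Willebrand factor, was found in 3 WT and 5 HKO members. Wnt2, a Wnt ligand of central endothelium, was found in 9 and 16.

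Pooled over barcodes, Kupffer cell genes reached nearly the level of the macrophage set. Over 16 such genes, members low in hepatocyte RNA held 5540 CPM (5242 to 5850) in WT and 6433 CPM (6213 to 6659) in HKO, against 6138 and 6649 CPM in the macrophage set and 827 and 809 CPM in the endothelial set. The ratio to the macrophage set was 0.903 (0.844 to 0.965) in WT and 0.967 (0.928 to 1.01) in HKO. Per barcode the WT median was lower in members, at 3433 CPM against 4901 CPM in the macrophage set. In HKO the medians were 6272 and 5856 CPM. Vsig4, a complement receptor of resident macrophages, had 989 CPM in WT members, 0 CPM in the endothelial set and 1477 CPM in the macrophage set. Timd4, a phosphatidylserine receptor of long-lived Kupffer cells, stood at 111 CPM in WT members and 142 CPM in HKO members, against 66.3 and 137 CPM in the macrophage set, and was found in 7 WT and 26 HKO members. Marco, a scavenger receptor, was found in 2 WT and 11 HKO members. The iron exporter gene Slc40a1 was present in nearly every HKO member (98.3%).

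Genes shared by all macrophages lay somewhat lower. Over 23 pan-macrophage genes, members low in hepatocyte RNA held 12562 CPM in WT and 13388 CPM in HKO, or 0.689 (0.660 to 0.719) and 0.734 (0.714 to 0.755) of the macrophage set. The endothelial set held 1243 and 1086 CPM. Csf1r, the receptor on which macrophages depend for survival, had 625 CPM in WT members, 38.1 CPM in the endothelial set and 812 CPM in the macrophage set. Lyz2, lysozyme, had 1126, 129 and 2577 CPM. In these barcodes all 23 genes lay between the single sets in HKO, and 19 of 22 tested did in WT. Over all barcodes the HKO number was the same, but all 22 genes tested in WT lay above both sets. MHC class II genes, which present antigen, reached 8657 CPM in WT and 8858 CPM in HKO members low in hepatocyte RNA, or 0.992 (0.940 to 1.05) and 0.797 (0.770 to 0.825) of the macrophage set. Complement and phagocytosis genes gave 0.907 (0.840 to 0.979) and 0.856 (0.815 to 0.900).

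Scavenger and endocytic receptors are the function that both cell types share. Over the 15 listed genes outside the macrophage set of the rule, members low in hepatocyte RNA held 4560 CPM in WT and 4631 CPM in HKO. The endothelial set held 5659 and 5585 CPM and the macrophage set 4111 and 3924 CPM, so that members lay between them. Over all barcodes this was not so, since WT members held 2416 CPM against 2408 and 1325 CPM, level with the endothelial set (ratio 1.00, 0.946 to 1.06), and HKO members held 4296 CPM against 3861 and 3551 CPM. Mrc1, the mannose receptor, had 927 CPM in HKO members, 1243 CPM in the endothelial set and 914 CPM in the macrophage set. Cd36, a fatty acid and lipoprotein receptor, had 681, 928 and 693 CPM. Among 25 ligands and receptors of the Kupffer cell niche, the endothelial ligand gene Bmp6 and the macrophage receptor gene Csf1r were counted in the same members. Csf1, the ligand of that receptor, was at or near 0, with 1 UMI over 14 WT members and 6 UMIs over 51 HKO members. The adhesion receptor gene Vcam1 stood at 629 CPM in WT members and 613 CPM in HKO members, against 1534 and 1089 CPM in the macrophage set and 152 and 177 CPM in the endothelial set.

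**Figure D2:**
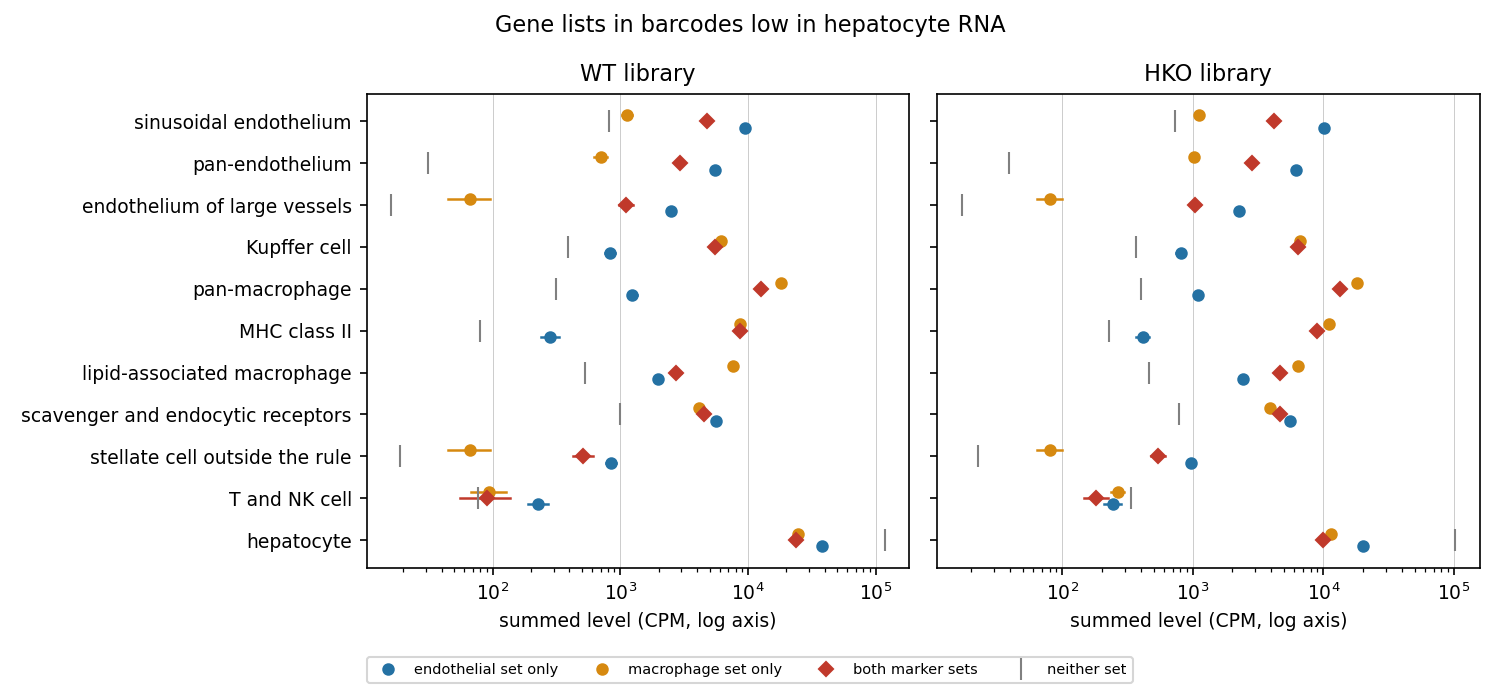
Summed level in CPM (log axis) of 11 gene lists in WT (left) and HKO (right) barcodes low in hepatocyte RNA: members (diamonds), endothelial set (blue), macrophage set (orange), with exact 95% Poisson intervals, and all barcodes with neither set (grey ticks). Members lie between the single sets for the endothelial and pan-macrophage lists and near the macrophage set for the Kupffer cell list.

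The position of members between the single sets was then read over many genes. Among genes outside the rule that differed at least 4-fold between the single sets in both libraries, 601 were higher in the endothelial set and 519 in the macrophage set (barcodes low in hepatocyte RNA). Members lay between the single sets for 558 of the 601 endothelial genes in WT and 589 in HKO, at a median of 0.403 and 0.368 of the endothelial level. For the macrophage genes they lay between for 414 of 519 in WT and 459 in HKO, at a median of 0.726 and 0.744 of the macrophage level. Endothelial and macrophage genes were thus both present, at similar proportions in the 2 libraries. With barcodes rich in hepatocyte RNA kept, the macrophage genes of WT members stood at a median of 2.73 times the macrophage set. In that set, 132 of 163 WT barcodes were rich in hepatocyte RNA.

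Each member was also described as a mixture of 3 fixed profiles, those of the endothelial set, the macrophage set and the barcodes with neither set, over genes outside the rule. The macrophage part is the macrophage share of the endothelial and macrophage shares together. With profiles made from all barcodes its median was 30.8% in WT and 70.3% in HKO. With profiles made from barcodes low in hepatocyte RNA it was 68.0% in the 14 WT members and 72.0% in the 51 HKO members. The first estimate differed between the libraries by more than the second. In the second estimate the part ran from 4.77% to 93.1% in WT and from 14.5% to 98.7% in HKO, and it lay between 20% and 80% in 11 of 14 and 32 of 51 members. Among single set barcodes low in hepatocyte RNA, it lay in that range for 2 of 62 WT and 5 of 165 HKO barcodes of the endothelial set, and for 2 of 31 and 8 of 144 of the macrophage set. These sets gave the profiles and the rule bounds their markers, so their values are a reference and not a test. In 18 of the 51 HKO members the part was above 80%.

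**Figure D3:**
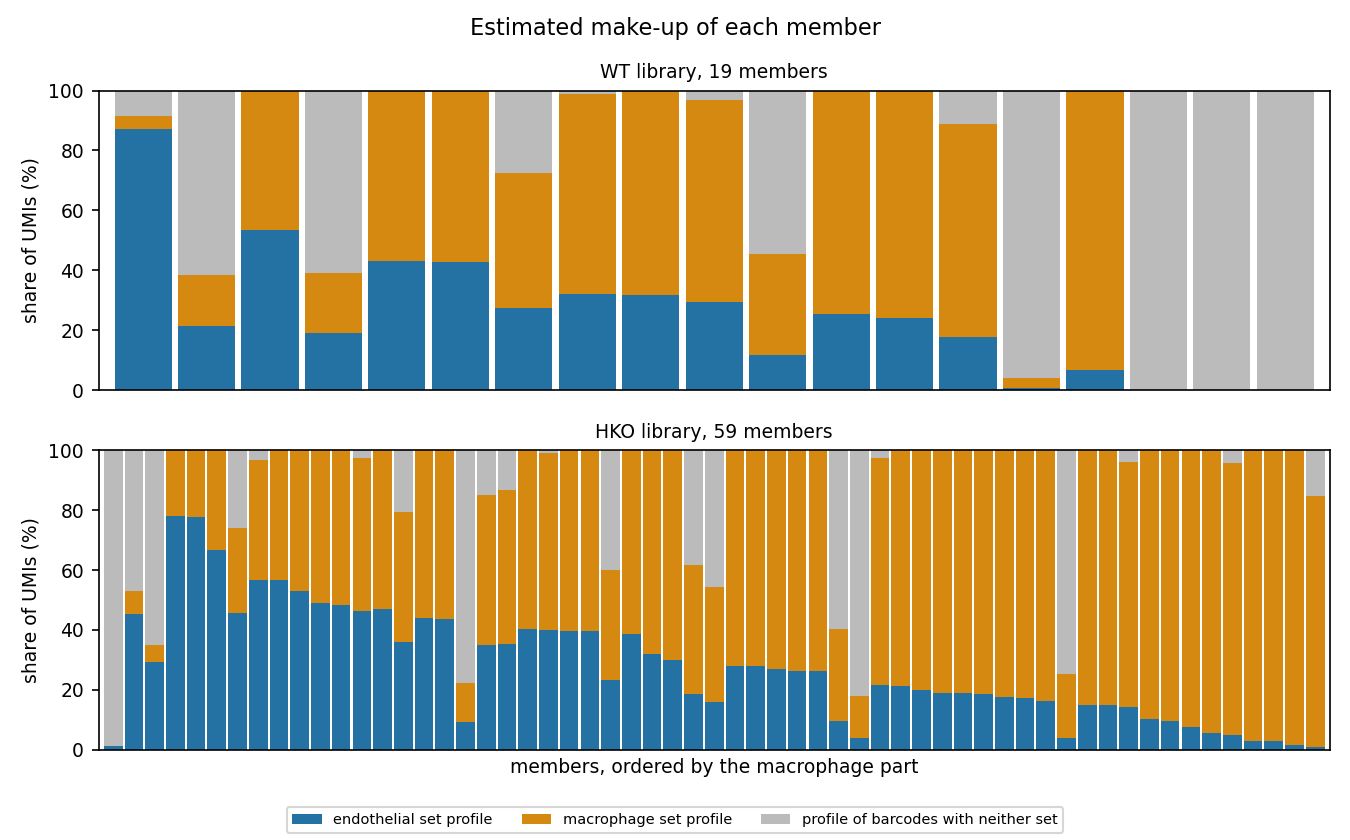
Estimated shares of the endothelial set profile (blue), the macrophage set profile (orange) and the profile of barcodes with neither set (grey) in the UMIs of each member outside the rule and mitochondrial genes, with profiles from barcodes low in hepatocyte RNA. Each bar is 1 member, ordered by the macrophage part, and the 3 grey WT bars at the right are the deep members for which that part has no meaning.

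Members were deep barcodes. Their UMIs ran from 2000 to 129735 in WT (median 19342) and from 1737 to 35492 in HKO (median 8076). The endothelial set had medians of 7841 and 3798 UMIs and the macrophage set 7872 and 3539. The median of members was 2.47 and 2.13 times that of the endothelial set and 2.46 and 2.28 times that of the macrophage set, in WT and HKO. In barcodes low in hepatocyte RNA it was 2.20 and 2.16 times the endothelial set and 1.44 and 1.43 times the macrophage set. It stood at 1.23 and 1.10 times the sum of both medians, and at 0.869 and 0.860 times that sum in barcodes low in hepatocyte RNA. Members held a median of 4762 genes in WT and 3217 in HKO. Part of this depth follows from the rule, since more genes are detected in deeper barcodes. In HKO, members made up 1 of 43 barcodes that passed the endothelial set at 1000 to 2000 UMIs (2.33%), 8.40% at 2000 to 5000, 35.8% at 5000 to 10000, 44.0% at 10000 to 20000 and 18.2% (2 of 11) at 20000 UMIs or more. From 2000 UMIs upwards the WT shares over the same ranges were 6.06%, 3.77%, 17.9% and 21.6%. Kept barcodes with at least 1000 UMIs were also thinned to 1000 UMIs before the rule was applied, which left out 385 in WT and 8319 in HKO. Of the thinned barcodes, 2 in WT and 21 in HKO passed, of which 1 and 13 were members.

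**Figure D4:**
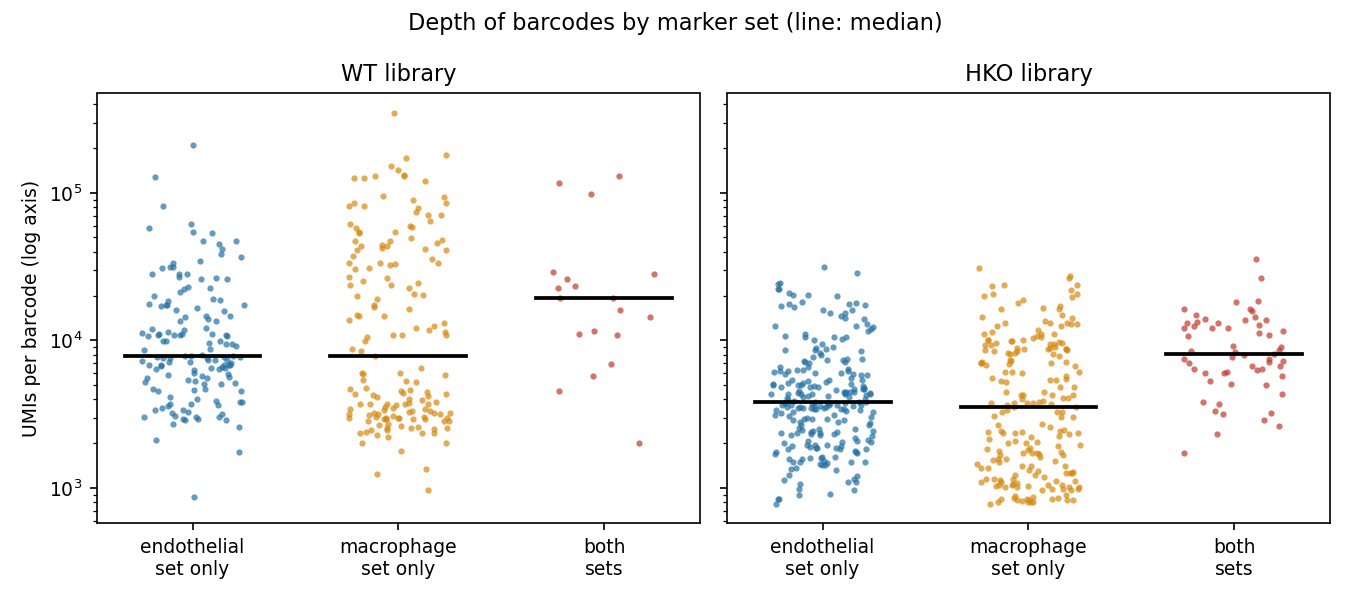
UMIs per barcode (log axis) in the endothelial set, the macrophage set and the members, for the WT (left) and HKO (right) library. Each point is 1 barcode and the line is the median, which stands at 19342 UMIs in WT and 8076 UMIs in HKO members.

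Detection of the markers was also compared at equal depth. In HKO barcodes thinned to 1000 UMIs, C1qa was detected in 51 of 59 members (86.4%), 71.0% of the macrophage set, 3.46% of the endothelial set and 1.21% of barcodes with neither set. Stab2 was detected in 50.8% of members (37.5 to 64.1), 60.6% of the endothelial set, 6.45% of the macrophage set and 0.813% of barcodes with neither set. These shares rest on the barcodes with at least 1000 UMIs: 59 members, 186 of the macrophage set, 231 of the endothelial set and 9350 with neither set. With shallower barcodes included, the median depths before thinning were 8076, 3539, 3798 and 1039.5 UMIs in the same order. Clec4g was detected in 20.3% of HKO members and 46.8% of the endothelial set, and in 15.8% of WT members. Kdr was detected in 50.8% of HKO and 21.1% of WT members. In WT, C1qa was detected in 10 of 19 thinned members (52.6%, 28.9 to 75.6) and Stab2 in 5 (26.3%, 9.15 to 51.2). Barcodes with neither set are bounded in these genes by the rule. These genes belong to the rule, so the shares describe the members and test nothing.

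The share of endothelial barcodes that passed another marker set was counted next, as a description. Among WT barcodes with at least 2000 UMIs that passed the endothelial set, with or without stellate genes, 33 of 189 also passed the macrophage set (17.5%, 12.3 to 23.6), against 0.726% of all kept barcodes with at least 2000 UMIs. In HKO it was 107 of 333 (32.1%, 27.1 to 37.4) against 5.87% of all. T and NK cell markers (at least 3 genes) were found in 1.59% of the WT and 7.81% (5.16 to 11.2) of the HKO endothelial barcodes, against 0.777% and 11.5% of all. B and plasma cell markers were found in 2.12% and 2.70%, against 0.260% and 2.55% of all. Stellate markers were found in 14.3% and 25.8% of endothelial barcodes, against 0.170% and 2.50% of all. These barcodes include the members, which were chosen by the endothelial and macrophage sets, and the sets differ in how many genes they require. Depth was not matched beyond the floor of 2000 UMIs: 25282 of the 27667 WT barcodes above it had fewer than 5000 UMIs, while the endothelial set had a median of 7841.

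**Figure D5:**
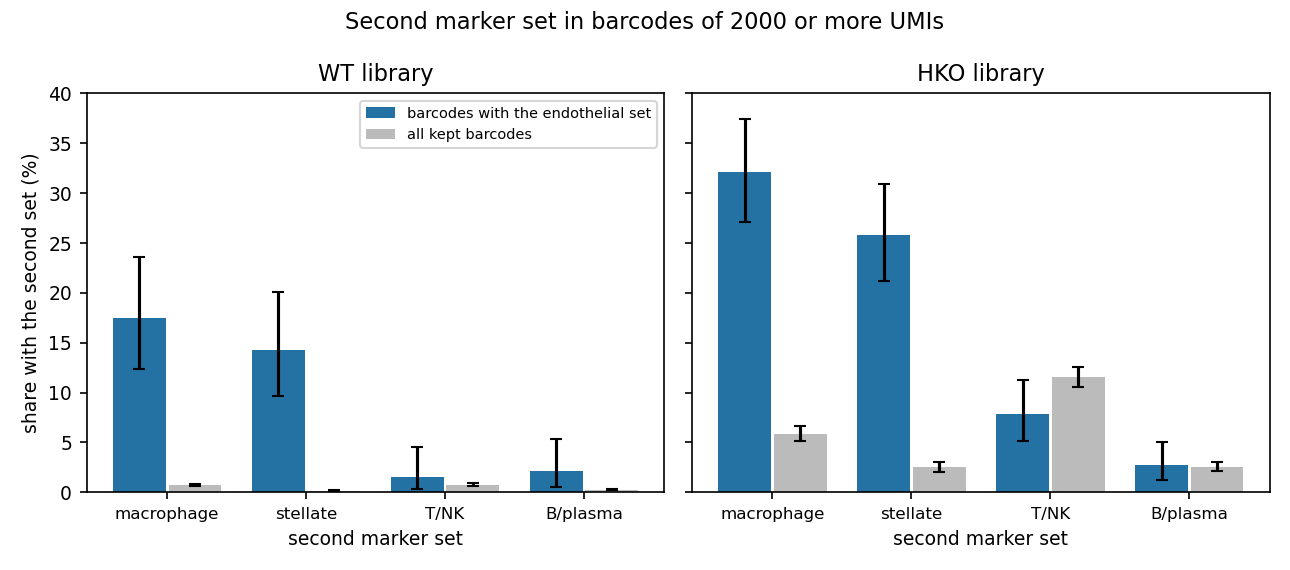
Share of barcodes that pass a second marker set, among barcodes that pass the endothelial set (blue) and among all kept barcodes (grey) with at least 2000 UMIs, with exact 95% binomial intervals. Macrophage and stellate sets reached 17.5% and 14.3% of endothelial barcodes in WT and 32.1% and 25.8% in HKO, while T and NK markers reached 1.59% and 7.81%.

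Markers of further cell types were present in some members. At least 3 of the stellate genes outside the rule, among them Colec11 and Sparc, were found in 11 of 19 WT and 26 of 59 HKO members, and their summed level in members low in hepatocyte RNA was 514 and 541 CPM. The endothelial set held 846 and 969 CPM of the same genes and the macrophage set 66.3 and 80.3 CPM. At least 3 of them were also found in 52 of 145 WT and 81 of 238 HKO barcodes of the endothelial set. In the macrophage set it was 6 of 163 and 6 of 209. These genes were therefore not particular to members. At least 3 of 10 dendritic cell genes, a list that holds the more widely expressed Irf8 and Bst2 beside Flt3 and Clec9a, were found in 9 WT and 32 HKO members. At least 3 T and NK cell genes were found in 1 WT and 5 HKO members, and at least 3 B and plasma cell genes in 1 and 3. Of the 2240 UMIs of B and plasma cell genes in HKO members, 1314 came from 1 barcode. Platelet genes were scarce, with 40 UMIs in WT and 37 in HKO members, and Ppbp, Gp9 and Tubb1 were at 0. Scrublet scores, which compare a barcode with artificial pairs made of other barcodes, were below the top 10% of their library in all 78 members. Those pairs were drawn from all kept barcodes, most of which passed neither set. The ranks therefore do not tell whether a member is a pair or a single cell. The automatic threshold of that tool marked 49.3% of WT and 9.59% of HKO barcodes, so its calls were not used.

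Genes higher in members than in both single sets were then counted. A gene was called if it was at least 2-fold above both sets, among genes with at least 10 UMIs in members. This was the case for 7.85% of 7058 genes in WT and 0.809% of 7668 genes in HKO, and for 1.37% and 0.669% in barcodes low in hepatocyte RNA. In both libraries at once it was 5 of 6263 genes (0.0798%): Edn1, Fhod1, Stk19, Mamld1 and Pprc1. Only Edn1, 1 of 4433 genes (0.0226%), was called in both libraries in barcodes low in hepatocyte RNA. Edn1 encodes endothelin-1, a vasoconstrictor made by endothelium, and had 21 UMIs in 3 WT members and 18 UMIs in 4 HKO members, with 10 and 13 UMIs in a single barcode. With each barcode weighted equally, its level in HKO members was 0.706 times that of the endothelial set. Fhod1, a formin that acts on actin, was spread more widely, with 16 UMIs in 10 WT members and 35 UMIs in 23 HKO members, at 61.4 CPM in HKO members against 22.9 and 24.5 CPM in the single sets. Marcksl1, an actin-binding protein gene, came just under the 2-fold level, with 249 CPM in HKO members against 79.7 CPM in the endothelial set and 125 CPM in the macrophage set.

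Between genotypes, the number of members differed. Members made up 0.0641% (0.0386 to 0.100) of kept WT barcodes and 0.323% (0.246 to 0.417) of kept HKO barcodes. Most kept barcodes passed neither set, so this share depends on how many such barcodes were deposited. Among barcodes that passed the endothelial set with fewer than 3 stellate genes, members made up 19 of 164 in WT (11.6%, 7.12 to 17.5) and 59 of 297 in HKO (19.9%, 15.5 to 24.9). Among those that passed the macrophage set the shares were 10.4% (6.40 to 15.8) and 22.0% (17.2 to 27.5). In barcodes low in hepatocyte RNA, members made up 14 of 76 (18.4%, 10.5 to 29.0) and 51 of 216 (23.6%, 18.1 to 29.8) of the endothelial barcodes. Of the macrophage barcodes they made up 14 of 45 in WT (31.1%, 18.2 to 46.6) and 51 of 195 in HKO (26.2%, 20.1 to 32.9), so that the order of the libraries turned. When barcodes with 3 or more stellate genes were counted too, both sets were met by 33 of 191 endothelial barcodes in WT (17.3%, 12.2 to 23.4) and 108 of 383 in HKO (28.2%). These shares describe 1 library each, and their intervals do not cover the spread between animals. Kept barcodes had a median of 2650 UMIs in WT and 1061 in HKO, and library and genotype cannot be told apart.

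Expression in HKO members was set against WT members for 9599 genes with at least 10 UMIs over both. Over all members, 28.9% of genes stood 2-fold or more above WT in HKO and 14.8% stood 2-fold or more below it, with a median of 0.48 on the log2 scale. Among barcodes low in hepatocyte RNA, 10.3% of 8439 genes were 2-fold higher and 7.76% 2-fold lower, and the median was 0.09. All 15 hepatocyte genes were 2-fold lower over all members and 11 of 15 among those low in hepatocyte RNA (median -1.29), and the hepatocyte share of these members was 2.60% in WT and 0.978% in HKO. The part of this RNA in the other differences was not tested. The values below are from members low in hepatocyte RNA unless stated.

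Among cell type genes outside the rule, the 23 pan-macrophage genes had a median log2 ratio of 0.08, with none past 2-fold. The medians of the pan-endothelial and sinusoidal genes were -0.21 and -0.28, with 1 of 25 and 1 of 16 genes 2-fold lower. The genes of the rule are a description only, since they chose the members. The 6 macrophage genes had a median of 0.02, Clec4f a ratio of 1.07 and Stab2 1.26. Mecom stood apart, with 4 WT and 45 HKO UMIs and a ratio of 5.25 (1.91 to 20.1). Of its HKO UMIs, 15 came from 1 barcode. The median of the 15 Kupffer cell genes tested was 0.35, and 3 of them were past 2-fold: Kcna2, Marco and Cd163 (10.3% of all genes were 2-fold higher). Marco and Cd163 are scavenger receptors and both had a ratio of 2.80. Marco was found in few WT members, as given above. Over all members the direction of the endothelial lists was the other way, with medians of 0.99 for pan-endothelial and 0.94 for sinusoidal genes and 1.25 for pan-macrophage genes.

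Genes of lipid-associated macrophages, which appear in steatotic liver, had a higher median ratio than the Kupffer cell and pan-macrophage lists and a lower one than the dendritic cell list (0.94, 6 of 7 genes above 1). The 8 monocyte genes tested had a median of 0.30, with 3 at least 2-fold higher (Ccr2, Plac8 and S100a4) and 1 at least 2-fold lower (Fn1). Of 12 lipid-associated genes tested, 11 had a ratio above 1 and 4 were at least 2-fold higher in HKO members (10.3% of all genes were), with a median log2 ratio of 0.74 against 0.09 for all genes. Their sum was 2744 CPM (2536 to 2965) in WT and 4635 CPM (4448 to 4828) in HKO. In the macrophage set the order was the other way, since WT held 7631 CPM and HKO 6387 CPM. Lpl, lipoprotein lipase, gave a ratio of 1.72 (1.46 to 2.03) from 187 WT and 690 HKO UMIs, and was found in 13 of 19 and 52 of 59 of all members. Lgals3, galectin-3, had a ratio of 1.85 (1.42 to 2.44), and Cd63, a lysosomal membrane protein gene, 3.35 (1.77 to 6.99). In the genes with the largest ratios, 1 or a few barcodes held a large share of the UMIs. Gpnmb had 57 UMIs in HKO and 1 in WT, but 35 of the 57 were in 1 barcode. Fabp5 had 77 and 4 UMIs with 37 in 1 barcode, and was found in 21 of all HKO members, and Spp1 had 98 UMIs in 3 HKO barcodes and 0 in WT, at least 15.2-fold higher. Spp1, osteopontin, is also a cholangiocyte gene and reached 1013 CPM in the HKO endothelial set. Trem2, the lipid receptor that marks these cells, had a ratio of 1.33 (0.710 to 2.65). Per barcode the sum ran from 657 to 8347 CPM in WT (median 2091) and from 0 to 21125 CPM in HKO (median 2938), so the ranges overlapped over the whole of WT.

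The genes with the highest ratios over all members included Igkc and Igha, an immunoglobulin light chain and a heavy chain gene of plasma cells. Igkc had 6 UMIs in 3 WT members and 1886 UMIs in 5 HKO members, of which 1163 were in 1 barcode. Igha had 5 and 356 UMIs, with 349 in 1 barcode. Gpnmb came next with a ratio of 59.5, and most of its UMIs were in 1 barcode, as given above. Several genes below it had modest counts spread over more barcodes. C5ar2, a receptor for complement fragment C5a, had 36 UMIs in 23 HKO members and 3 in 2 WT members, and its ratio was 12.5 (3.96 to 63.6) over all members and 5.13 (1.61 to 26.2) in those low in hepatocyte RNA. Fam126a had 40 UMIs in 26 HKO members and 4 in 4 WT members, with ratios of 10.4 and 4.67. Gbp2b, an interferon-induced GTPase gene, had 49 and 5 UMIs with ratios of 10.2 and 4.57. Apba1 and Inpp4b had ratios of 15.1 and 8.61 over all members and of 6.30 and 3.73 in those low in hepatocyte RNA. Adgrg6 had 36 UMIs in 10 HKO members, 18 of them in 1 barcode, and 4 in 4 WT members, a ratio of 9.39 over all members.

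Among the lowest ratios over all members, Ly6d, Alas2, Inhbc, Fam25c, Gsta4, Rgs16, Serpina11 and Leap2 had values of 0.0516 to 0.0859. The hemoglobin gene Hbb-bs had 169 UMIs in WT and 5 in HKO members, and 165 of the 169 came from 1 barcode. In members low in hepatocyte RNA its counts were 1 and 4. Among these members, low ratios were found for Cyp2c29, a cytochrome P450 gene (0.0778), Thrsp, a regulator of lipid synthesis (0.0933), and Ehhadh, a peroxisomal enzyme gene (0.147). Pon1 (0.149), Leap2 (0.197), Cpb2 (0.203) and C4bp (0.217) were among the lowest too. The median hepatocyte share of these members was 2.60% in WT and 0.978% in HKO, and its part in these ratios was not tested. Ccn1 and Ccn2, matricellular proteins, had ratios of 0.100 (0.0339 to 0.246) and 0.204 (0.126 to 0.323). Over all members the chemokine gene Ccl2 had 117 UMIs in WT, 113 of them in 1 barcode, and 45 UMIs in 15 HKO members.

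Of 5 known targets of miR-33 that could be tested, 4 had a ratio above 1 and 1 below, with a median log2 ratio of 0.13 against 0.09 for all genes. Prkaa1, a subunit of the energy sensor AMPK, had a ratio of 1.77 (0.640 to 6.08), and Abcg1, another cholesterol exporter, 1.06 (0.738 to 1.54). Abca1, the cholesterol exporter, gave a ratio of 1.09 (0.867 to 1.39) from 105 WT and 246 HKO UMIs. Cpt1a, the entry enzyme of mitochondrial fatty acid oxidation, had 23 UMIs in WT and 74 in HKO, and the interval of its ratio was 0.929 to 2.51. Crot, a peroxisomal acyltransferase gene, had a ratio of 0.482 (0.333 to 0.699). Crot and Cpt1a are also hepatocyte genes, and Crot had 346 UMIs over all WT members against 60 in those low in hepatocyte RNA. Genes of the unfolded protein response had a median of -0.31, with 1 of 20 past 2-fold higher (Atf4, 2.07) and 1 past 2-fold lower. Interferon response genes had a median of 0.10, with Oasl2 at 2.87 (1.28 to 7.55). Each of these lists had at most 2 genes past 2-fold in either direction.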

How the data were processed

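The deposited files held UMI counts per gene and barcode, made by the authors with Cell Ranger 7.1.0 according to the file header. The submitters' processing notes name mm10, Seurat 3 and R 3.0. These counts were whole numbers with no normalization, 130451427 UMIs in 30078 WT barcodes and 52563185 UMIs in 20000 HKO barcodes, over 32285 genes. How barcodes were selected for deposit is not given in the sources used here.

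The members and all gene lists were chosen with earlier results of these data known. Doublets were not removed, because the members are barcodes that such a step may remove. Barcodes that the libraries share were not analysed here. Levels are UMIs summed over barcodes per 1000000 (CPM), with exact Poisson intervals. Ratios have exact intervals conditional on the summed count, and shares have Clopper-Pearson intervals. A ratio against 0 counts used 3 counts per group. Mixture shares were fitted by expectation maximization with 400 iterations, tested on simulated data. Named genes were those of the rule and lists with at least 10 UMIs in members, the 10 with the highest smaller ratio above both sets, and the 10 highest and 10 lowest HKO to WT ratios among genes with at least 30 UMIs in at least 5 members, without mitochondrial and predicted genes. A gene that this rule names is not reported here. Genes were placed with GENCODE annotation of GRCm38. The tools were scanpy 1.11.5 (Scrublet scores), scipy 1.17.1 (intervals), numpy 2.4.6 and matplotlib 3.10.9 under Python 3.11.15. No sequence was needed.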

Additional observations from a re-analysis of the deposited data

How the results depend on the processing

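Of the summary values recomputed under the alternatives, 71 stayed within the spread or the 1.5-fold limit set for them, 44 moved and 2 turned. Of the recomputed ratios of named genes, 642 stayed within their interval, 150 moved and 5 turned. The cause was not tested where none is named. The alternatives that keep barcodes low in hepatocyte RNA or leave out members with B and plasma cell genes were chosen after seeing the data. No paired analysis was possible because each genotype had 1 library, and no replicate could be left out. With at least 5 endothelial and 4 macrophage markers, 11 WT members remained, and the depth of HKO members over the macrophage set was 1.45. After thinning to 1000 UMIs, 2 WT and 21 HKO barcodes passed. With single sets free of any marker of the other set, that depth ratio was 4.78 in WT and 4.28 in HKO, and in barcodes low in hepatocyte RNA it was 1.44 in WT and 1.43 in HKO.

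The ratio of members to the endothelial set over endothelial genes outside the rule was 0.672 in WT and 0.617 in HKO. It was 0.618 and 0.589 with at most 20% mitochondrial UMIs, 1.51 and 0.588 under the stricter rule, 0.403 and 0.652 after thinning, 0.622 and 0.521 with barcodes weighted equally, and 0.512 and 0.430 in barcodes low in hepatocyte RNA. In WT it was also 0.593 with marker-free single sets and 0.827 without the deepest member. The ratio to the macrophage set over macrophage genes outside the rule was 2.44 in WT and 0.816 in HKO. It turned in WT to 0.990 after thinning and to 0.743 in barcodes low in hepatocyte RNA, and was 3.31 under the stricter rule, 2.62 with marker-free sets, 1.96 with equal weights and 3.06 without the deepest member. In HKO it was 1.08 with marker-free sets, 1.05 with equal weights and 0.796 in barcodes low in hepatocyte RNA. Both WT ratios after thinning, 0.403 and 0.990, rest on 2 barcodes, of which 1 was a member before thinning. The WT macrophage part of 30.8% was 68.0% in members low in hepatocyte RNA with profiles rebuilt from such barcodes. It was 30.6% in these members with the first profiles and 69.7% in all 19 members with the rebuilt ones, so the change of profiles moved it.

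Of genes above both sets, the WT number of 554 (7.85% of 7058 tested) was 1425 under the stricter rule. In barcodes low in hepatocyte RNA it was 62 (1.37% of 4535). The HKO number of 62 (0.809% of 7668) was 209 with marker-free sets and 168 with equal weights. The number in both libraries, 5, was 2 with at most 20% mitochondrial UMIs, 25 with marker-free sets, 22 with equal weights and 1 in barcodes low in hepatocyte RNA. The 2776 genes higher and 1419 lower in HKO members were 28.9% and 14.8% of 9599 tested. These counts were 796 and 492 under the stricter rule, 16 and 124 after thinning, and 1732 and 925 among genes with at least 30 UMIs. In barcodes low in hepatocyte RNA they were 865 and 655 (10.3% and 7.76% of 8439), and 1435 were higher with equal weights. The number tested changes with the stricter rule, thinning and the UMI floor. It is not given for these settings, so their counts cannot be read as shares. Thinning left 2 WT and 21 HKO barcodes of 1000 UMIs. Edn1 in HKO members was 0.706 of the endothelial set with equal weights. The HKO to WT ratio of Hbb-bs was 1.93 under the stricter rule, 1.09 without the deepest members and 1.87 in barcodes low in hepatocyte RNA, and that of Clec4f was 0.958 under the stricter rule.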
